A study of Homo sapiens with 6 samples.

Results

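The genes described here are 7 transcription factors that set gut identity, CDX1, CDX2, HNF4A, GATA4, GATA6, KLF5 and PROX1, a set listed by gene name with earlier results of these data known. Of these 7, 5 were measured on array features that the platform annotation assigns to 1 gene (CDX2, GATA4, GATA6, KLF5 and PROX1), out of 12562 named genes and 33497 features in all. CDX1 was not analysed here. HNF4A was named on 4 features only through the RefSeq transcript accession of each feature, a naming chosen after the values were seen, and it is kept apart from the counts of the 5. Where several features carried a gene's symbol, the one of highest mean over the 6 arrays stood for it.

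The cells were SW480, a human colorectal adenocarcinoma line, with 3 separate cultures given FOXC2 by retrovirus and 3 given pBabe, the control vector. FOXC2 belongs to the forkhead family and acts in vascular and mesenchymal development. Every culture was kept in 10% serum and went through puromycin selection (0.5 μg/mL, over 3 to 5 days) before harvest at 90% confluence. The promoter that drives the construct is not stated in the labels. Total RNA was hybridised to single-colour Cy3 arrays, 1 array per culture, and the number of arrays limits the precision. The labels name separate cultures but not separate transductions, so p-values measure the spread between cultures. In RNA from whole cultures, more cells that express a gene and more of its RNA per cell cannot be told apart.

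Gut identity is held by a small set of transcription factors that bind one another's genes and those of the absorptive and secretory programmes. CDX1 and CDX2 are homeobox factors that specify intestinal epithelium. HNF4A is a nuclear receptor that drives enterocyte and hepatocyte genes. GATA4 and GATA6 are zinc finger factors of the endoderm, GATA4 mainly of the proximal gut and GATA6 along its length. KLF5 is a Krüppel-like factor of the proliferating crypt. PROX1 is a homeobox factor known as a master regulator of lymphatic endothelium and as a WNT target in colorectal tumours.

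The introduced gene and the colon line were checked first. FOXC2 had an intensity of 8777, 8262 and 8344 with the construct and of 2319, 2323 and 2818 without it, so all arrays labelled FOXC2 were above all arrays labelled pBabe. Array medians lay between 894.9 and 913.3, and the table ran from 50.002 to 57044. Of all features 26.3% passed, 13.3% as higher and 13.0% as lower (limma, Benjamini-Hochberg adjusted p under 0.05 over all features). Of 11 colon epithelial markers, 7 were measured, of which 4 rose and 1, the keratin KRT18, fell (a call lost with any 1 array left out). The adhesion molecule EPCAM rose by 2.35 on the log2 scale, from 707, 689 and 738 to 3840, 3561 and 3454, and KRT19 by 1.06. The simple epithelial keratin KRT8 was bright in both groups, at 29895 to 34157 in FOXC2 and 32906 to 36992 in pBabe. The intestinal cadherin CDH17 was dim, at 73, 118 and 115 in FOXC2 and 325, 55 and 71 in pBabe.

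In the comparison of FOXC2 with pBabe cells, which asked what the FOXC2 construct changed, CDX2, KLF5 and PROX1 rose, and GATA4 and GATA6 did not pass. CDX2 rose 2.28-fold and KLF5 1.38-fold. PROX1 rose 4.30-fold, from a dim level in pBabe. Of the 5 members, 3 passed, all higher, and 0 were lower. Over all features the shares were 26.3% passing, 13.3% higher and 13.0% lower, and with 1 feature per named gene the shares were 28.4% in all, 14.1% higher and 14.3% lower.

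CDX2, the homeobox factor that specifies intestine, had an intensity of 3642, 2881 and 3290 with FOXC2 and of 1387, 1316 and 1601 with pBabe. Every FOXC2 culture lay above every pBabe culture. Groups failed to overlap for 45.5% of all features, and for 23.8% the lowest FOXC2 array was above the highest pBabe array. The log2 fold change was 1.19 ± 0.125 (SE; 95% confidence interval 0.89 to 1.49), with a limma adjusted p of 0.00103. Mean log2 intensity was 11.67 ± 0.169 (SD, n = 3) in FOXC2 and 10.48 ± 0.146 (SD, n = 3) in pBabe. The window from 250 bases before to 50 after the RefSeq start of CDX2, on the minus strand of chr13:27969266-27969565 (GRCh38.p14), is shown because a forkhead core lies in it. Capitals mark matches on either strand to the forkhead core GTAAACA. They also mark matches on either strand to a core of the GATA family, AGATAA.
CDX2 promoter window: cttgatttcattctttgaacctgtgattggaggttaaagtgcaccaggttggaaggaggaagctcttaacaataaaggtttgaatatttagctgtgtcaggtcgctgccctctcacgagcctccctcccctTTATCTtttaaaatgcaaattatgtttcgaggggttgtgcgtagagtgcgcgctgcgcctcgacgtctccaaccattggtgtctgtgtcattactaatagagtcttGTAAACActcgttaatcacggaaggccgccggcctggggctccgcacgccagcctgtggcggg
The forkhead match starts 13 bases before the start site and the GATA match, in reverse, 119 bases before it. GTAAACA or its reverse complement occurred in 3.42% of 35116 RefSeq promoter windows of the same length, and AGATAA in 10.3%. A match is a description of letters and not a measured site. Neither core, nor TTTATG, a CDX core found in 10.6% of windows, occurred in the windows of KLF5 or GATA6. TTTATG was absent from the CDX2 window too. No window was searched for PROX1 or GATA4.

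HNF4A was represented by 4 features, each named for a different RefSeq transcript of the gene. The probes of these transcripts may share sequence, so the 4 may not be independent. The brightest feature had an intensity of 6054, 6884 and 7562 in FOXC2 and 1019, 1224 and 955 in pBabe. It rose 6.42-fold, or 2.68 ± 0.133 (SE) on the log2 scale (limma adjusted p 6.13e-05). The other features were at 1340, 1296 and 1336 against 348, 325 and 324, at 1697, 1645 and 1633 against 354, 413 and 427, and at 1438, 1239 and 1443 against 256, 328 and 246. On all 4 features every FOXC2 culture lay above every pBabe culture. The log2 fold changes of the other 3 features were 1.99, 2.06 and 2.32, each past the test. In pBabe these 3 were dim, so the sizes of their rises are uncertain. With HNF4A counted, 4 of 6 measured genes rose, against 1840 of all 13043 genes named in either way. HNF4A has RefSeq windows around a pair of starts, given because the gene rose on every feature.
HNF4A upstream window, chr20:44355449-44355748, plus strand: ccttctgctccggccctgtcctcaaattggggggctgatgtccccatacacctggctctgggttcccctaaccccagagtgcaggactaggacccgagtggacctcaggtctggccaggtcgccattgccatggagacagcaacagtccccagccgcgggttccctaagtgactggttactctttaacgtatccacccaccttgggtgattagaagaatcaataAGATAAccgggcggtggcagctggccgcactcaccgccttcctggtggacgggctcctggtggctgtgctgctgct
HNF4A downstream window, chr20:44400989-44401288, plus strand: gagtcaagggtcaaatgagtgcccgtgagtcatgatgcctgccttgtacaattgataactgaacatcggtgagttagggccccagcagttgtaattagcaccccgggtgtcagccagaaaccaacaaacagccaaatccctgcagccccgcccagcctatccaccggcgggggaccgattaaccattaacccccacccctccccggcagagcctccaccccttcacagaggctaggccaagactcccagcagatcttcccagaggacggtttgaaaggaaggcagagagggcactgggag
The capitals in the upstream window mark AGATAA, which starts 26 bases before the start site. The downstream window has no AGATAA, and neither window has the forkhead core GTAAACA or the CDX core TTTATG on either strand. Which of the starts the 4 features report was not determined.

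**Figure D1:**
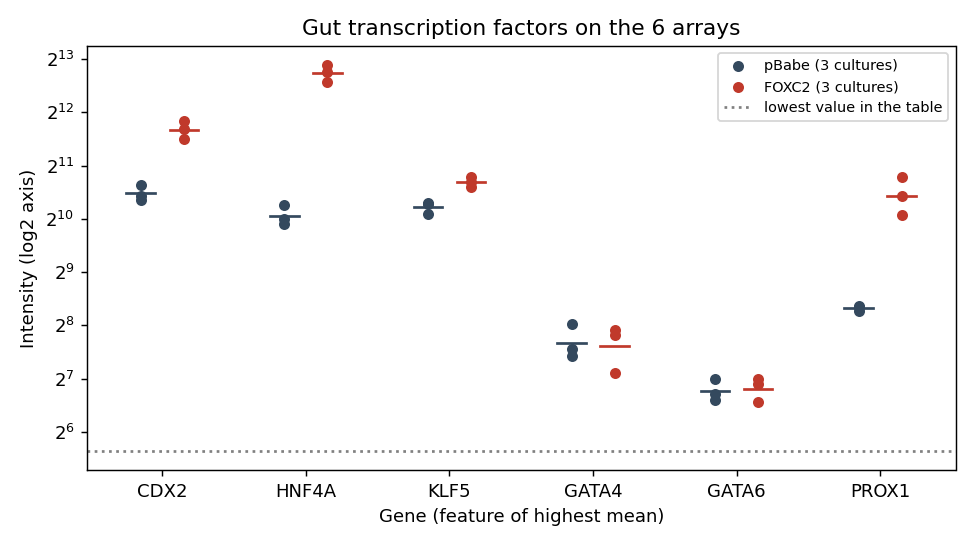
Intensity on a log2 axis of the feature of highest mean for 6 genes, with 3 pBabe and 3 FOXC2 cultures as points and the mean of the log2 values as a bar. CDX2, HNF4A, KLF5 and PROX1 do not overlap between groups, and GATA4 and GATA6 overlap near the lowest value in the table (dotted line).

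PROX1, the lymphatic and WNT-responsive homeobox factor, had an intensity of 1759, 1386 and 1079 with FOXC2 and of 308, 328 and 326 with pBabe. All FOXC2 cultures lay above all pBabe cultures, and the FOXC2 cultures spread more, with a log2 SD of 0.352 against 0.0495 in pBabe. The log2 fold change was 2.11 ± 0.175 (SE, 95% confidence interval 1.69 to 2.52, limma adjusted p 3.92e-04). PROX1 was dim in pBabe and detection calls were not used, so the size of its rise is uncertain.

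KLF5, the crypt Krüppel-like factor, had an intensity of 1546, 1656 and 1772 in FOXC2 and 1260, 1247 and 1094 in pBabe. The groups did not overlap, but the difference was small, at a log2 fold change of 0.47 ± 0.101 (SE; 95% confidence interval 0.23 to 0.71; limma adjusted p 0.0170). The call was lost on leaving out FOXC2 replicate 2 (adjusted p 0.0526) or 3 (0.0619), although its value stayed between 0.40 and 0.52 with each array left out.

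GATA4 and GATA6 were dim. GATA4 had an intensity of 225, 137 and 240 in FOXC2 and 171, 260 and 188 in pBabe, and GATA6 94, 127 and 119 in FOXC2 and 106, 128 and 96 in pBabe. The groups overlapped for both. The log2 fold change was -0.06 for GATA4 (95% confidence interval -0.66 to 0.54; limma adjusted p 0.888) and 0.04 for GATA6 (-0.33 to 0.41; adjusted p 0.865). A p that misses the threshold does not show that the levels are equal, and detection calls were not used, so signal over background was not assessed. The change in GATA6 minus GATA4 on each array differed between groups by 0.10 (exact permutation test, two-sided, p = 0.90, where 3 arrays against 3 allow 0.10 at the least). The same comparison of CDX2 with CDX1 could not be made.

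**Figure D2:**
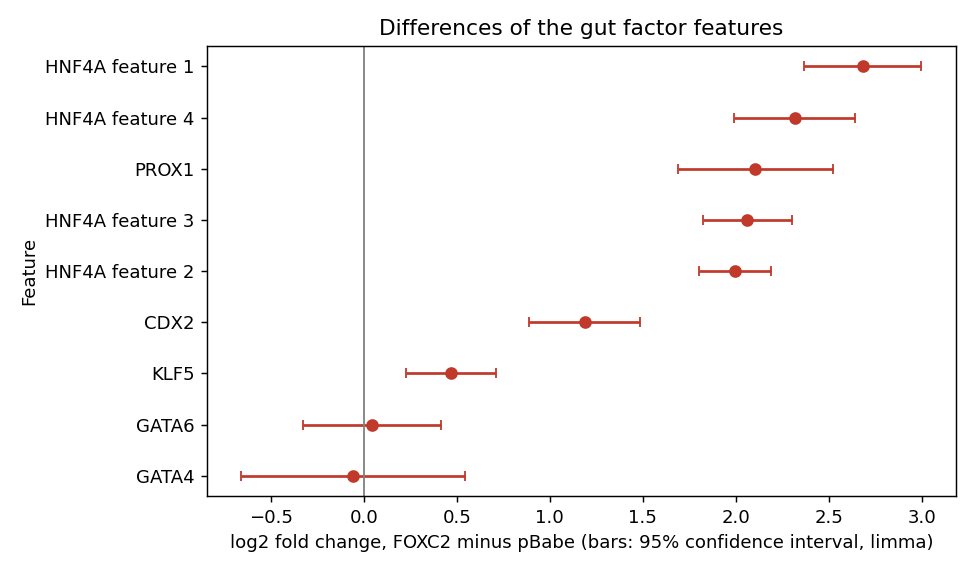
log2 fold change of each feature of the measured genes, FOXC2 minus pBabe, with 95% confidence intervals from limma. HNF4A features, PROX1, CDX2 and KLF5 lie above 0, and the intervals of GATA4 and GATA6 span it.

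Other genes were described through lists drawn up with earlier results of these data known, without a set test. Over all named genes the median log2 fold change was 0.03, and 28.4% passed, 14.1% as higher and 14.3% as lower. The share passing was near this among the HNF4A targets and in the KLF5 list below, so those counts do not set the lists apart. Of 8 measured paralogs of the members, 1 rose and 2 fell (median -0.07). GATA2, a GATA factor of blood and lymphatic endothelium, fell by 1.81 on the log2 scale, from 4589, 5356 and 4620 in pBabe to 1235, 1423 and 1484 in FOXC2. KLF9 fell by 1.16. KLF3 had a log2 fold change of 0.37 (adjusted p 0.0283) but did not pass without FOXC2 replicate 1 or 3 or pBabe replicate 1 or 2.

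Of 19 other gut transcription factors measured, 10 rose, 5 fell and 4 did not pass (median 0.48). With dim features left out 6 rose and 5 fell. That filter kept a feature where its higher group mean reached the median of the table. PDX1, FOXA3, ASCL2 and SOX9 reached it through FOXC2 alone, so the filter is no check of their rises. PDX1, which specifies pancreas and duodenum, rose by 2.59, from 172, 204 and 157 to 1128, 968 and 1098. The liver and gut forkhead factor FOXA3 rose by 2.41 and FOXA2 by 0.86. PDX1 was dim in pBabe and detection calls were not used, so the size of its rise is uncertain. BARX1, which marks stomach mesenchyme, fell by 1.99, from 473, 435 and 356 to 73, 153 and 106, near the lowest value in the table. The crypt progenitor factors MYB and ASCL2 and the foregut factor SOX2 rose by 1.90, 1.89 and 1.01. Of those that fell, CREB3L3 did so by 0.98, the NOTCH target HES1 by 0.60, the epithelial factor ELF3 by 0.57 and VDR by 0.48. In pBabe MYB was at 161, 189 and 171, FOXA3 at 359, 202 and 182 and SOX2 at 273, 287 and 263. These too are dim, so the sizes of the rises of MYB, FOXA3 and SOX2 are uncertain.

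Of 6 measured genes known to be activated by CDX factors, 2 rose and 0 fell (median 0.02). The brush border protein VIL1 rose by 3.11 and the efflux pump ABCB1 by 2.21, whereas the mucin MUC2 was at -0.20 (adjusted p 0.213) and CDH17 at -0.12 (0.912). VIL1 and CDH17 are also in the list of colon markers, where VIL1 was counted among those that rose. Of 7 measured HNF4A targets, 2 rose (1 with dim features left out) and 0 fell (median 0.16). The apolipoprotein APOC2 rose by 2.42, from 273, 328 and 241 to 1712, 1295 and 1476. It was dim in pBabe, so the size of its rise is uncertain, and it passed the filter on dim features through FOXC2 alone. TTR, a transport protein, had 0.72 (limma adjusted p 0.0355), which did not pass without FOXC2 replicate 1 or 2 or any of the pBabe replicates. APOA1 was at 0.18 (0.599). Of 8 hepatocyte markers 3 were measured and 1, TTR, rose, and their summed intensity ran from 376 to 586 in FOXC2 and 336 to 504 in pBabe. Albumin and AFP were not analysed. The part of these markers in the HNF4A and TTR results was not tested. Of 9 stomach markers 2 were measured and 1 passed, with a summed intensity of 334 to 427 in FOXC2 and 110 to 303 in pBabe, and the proton pump gene ATP4A, at 57, 88 and 63 in pBabe and 98, 117 and 146 in FOXC2, had 0.81 (adjusted p 0.0303). These values are near the lowest in the table, so the size is uncertain, and the call was lost without FOXC2 replicate 2 or 3 or pBabe replicate 1 or 3, and with a trended robust prior (0.0507).

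Of 4 measured GATA cofactors and targets, 3 rose (1 with dim features left out) and 0 fell (median 0.96). The cofactors ZFPM2 and ZFPM1, which bind GATA factors and alter their activity, rose by 1.94 and 0.88, though in pBabe both were near the lowest value in the table, ZFPM2 at 103, 125 and 53 and ZFPM1 at 75, 110 and 88. BMP4, a morphogen that GATA6 is known to restrain in colorectal tumour cells, rose by 1.05. Of 11 KLF5-regulated genes and KLF5 ligases, 1 rose and 2 fell (median -0.10). The growth factor carrier FGFBP1 rose by 1.29, cyclin CCND1 fell by 0.94, and WWP1, a ubiquitin ligase of KLF5, fell by 0.43, a call lost without FOXC2 replicate 1 or 3 or any of the pBabe replicates.

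Of 7 measured lymphatic endothelial genes, 1 passed, and it fell. FLT4, the receptor for lymphatic growth factors, was at -0.67 (adjusted p 0.0102) on its brighter feature, and -0.11 (0.461) with its features averaged, so its value depends on the feature. The summed intensity of this list was 7292 to 8620 in FOXC2 and 8182 to 8819 in pBabe. The other 6 listed genes, the lymphatic markers LYVE1 and PDPN among them, were not analysed under the platform's names.

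**Figure D3:**
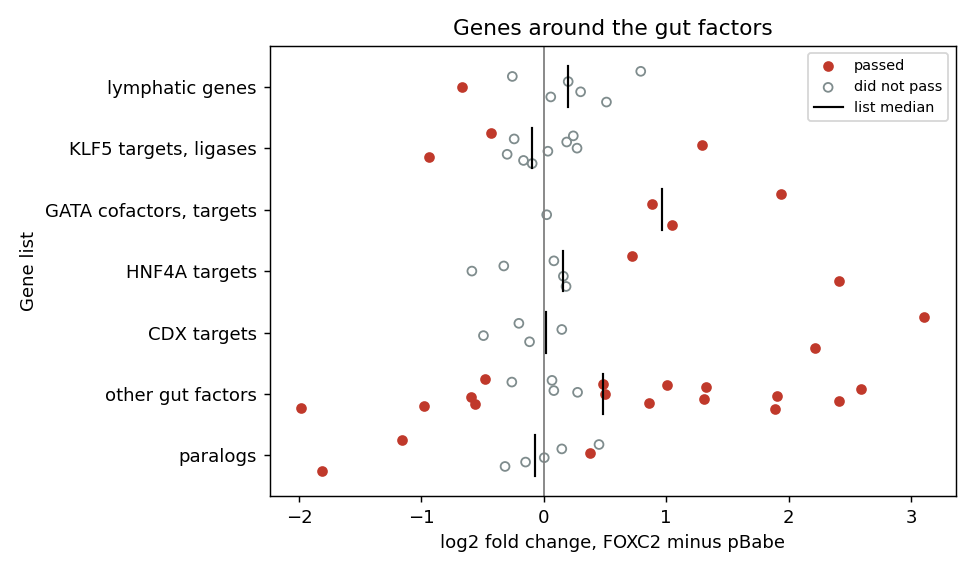
log2 fold change of every measured gene in each list, FOXC2 minus pBabe, filled where the limma adjusted p was under 0.05, with the list median as a bar. Of the 19 other gut factors 10 rose, and the paralogs GATA2 and KLF9 lie below 0.

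The 2 named genes most like each member were taken by the root mean square difference of log2 values, each centred on its own mean over the 6 arrays. For CDX2 they were SLC47A1 (0.0725) and CACNG4 (0.0765), for KLF5 ABR (0.0334) and MTHFD1L (0.0386), and for PROX1 CHGB (0.167) and MYB (0.186). For GATA4 they were FCER2 (0.0639) and ZNF557 (0.0926), and for GATA6 SCARF1 (0.0473) and KIAA0513 (0.0489). For HNF4A they were HBA1 (0.108) and CAMKV (0.134). These are descriptions over 6 arrays in 2 groups, with no test.

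**Figure D4:**
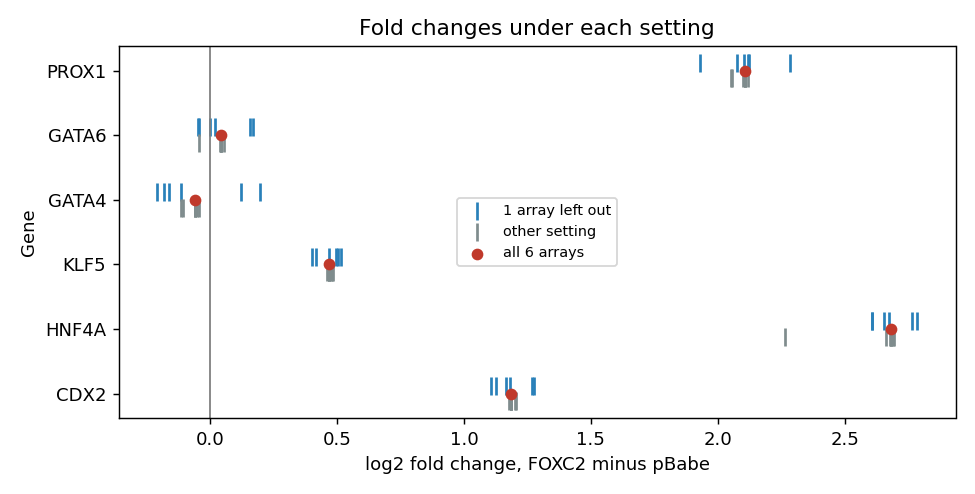
log2 fold change of each gene under each setting, as ticks for 1 array left out (upper) or another setting (lower), and as a point for all 6 arrays. CDX2, HNF4A, KLF5 and PROX1 stay above 0, and GATA4 and GATA6 fall on both sides of 0.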

How the data were processed

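The deposited intensities, on a linear scale, were made by the authors with RMA, per the submitters' processing notes. Its version and settings, and the genome build, were not stated there. RMA as usually run makes the arrays' distributions alike, so a shift shared by all transcripts would not be seen. Intensities were taken to log2 with no offset or filter, and 3 FOXC2 arrays were compared with 3 pBabe arrays with limma 3.58.1 under R 4.3.3 (lmFit, then eBayes), with Benjamini-Hochberg adjustment over 33497 features and a threshold of 0.05. Of these, 13730 had 1 platform symbol, and 535 more were named through RefSeq transcript accessions. The rule for named genes took up to 3 per list and the 2 most like each member. Members, lists and this rule were chosen with earlier results of these data known. MYB, ASCL2, SOX2, SOX9, FOXA2, ELF3, HES1, CREB3L3, VDR, APOA1, MUC2, CDH17, KRT8 and KRT18 were named after their values were seen. RefSeq promoter windows (GRCh38.p14) were searched for exact cores. Every deposited value was at least 50.002, so genes that fall below that on an array may not be analysed here. Slides and scan batches were not used. On simulated data over 33497 features, with 50 changed at each size, 58% of those with a true log2 change of 1 and 2% with 0.5 were called. Far fewer features were changed there than passed here (26.3%), which makes the adjusted threshold stricter. These shares therefore do not give the power of the comparison of FOXC2 with pBabe. Alternatives were another normalization, a block, filter, prior, weights, offset, feature means and leaving out each array. Some list genes are not reported here.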

Additional observations from a re-analysis of the deposited data

How the results depend on the processing

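CDX2, PROX1 and HNF4A passed and stayed positive under every setting run. With an array left out CDX2 ran from 1.11 to 1.28, PROX1 from 1.93 to 2.28 and HNF4A from 2.61 to 2.79. PROX1 entered the fit without dim features through FOXC2 alone, so that setting is no check of its rise. KLF5 ran from 0.40 to 0.52 with an array left out. GATA4 ran from -0.21 to 0.20 and GATA6 from -0.0469 to 0.17 with an array left out, and GATA6 was at -0.0427 after quantile normalization, so neither has a settled sign. Members that rose numbered 2 to 3 with an array left out, and 4 with HNF4A named, and 0 fell. Genes of the lists that rose numbered 23, 14 with dim features left out, a filter that removes members, and 19 to 21 with an array left out. That filter keeps genes bright in FOXC2 alone, so it is no check of the rises of those genes. Those that fell numbered 11, also 11 with dim features left out, and 9 to 10 with an array left out. Over all named genes, with 1 feature per gene and all arrays, 14.1% were higher and 14.3% lower. Passing features numbered 8819, and 5752 to 6768 with an array left out, lowest without FOXC2 replicate 3, where the cause was not tested. With means over a gene's features 3864 of 12563 genes passed, or 30.8%, fewer being tested. The labels give both groups the numbers 1 to 3, and same-numbered cultures did not deviate together (correlations -0.102, -0.119 and -0.0615). With the replicate block 5960 features and 2 members passed, KLF5 was at 0.47 (adjusted p 0.0634), and KLF3 (0.0863), TTR (0.0785) and WWP1 (0.10) did not pass. Among named list genes, 146 of 151 values under another setting stayed on the same side of the threshold with the same sign and 5 lost their call, as did 18 of 120 with an array left out. CDX2 was not paired with CDX1, which was not analysed.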

Other observations

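Features named through RefSeq accessions, a naming chosen after the values were seen, added NR2F2, a nuclear receptor that acts with PROX1 in lymphatic endothelium. It had an intensity of 1379, 1403 and 1580 in pBabe and 3023, 2579 and 2708 in FOXC2, and all FOXC2 cultures were above all pBabe cultures. It rose by 0.93 on the log2 scale (limma adjusted p 0.00132). With this naming, 1 of 8 measured lymphatic genes rose and 1 fell.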
